A study of Mus musculus with 4 samples.

Results

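Il4i1 and Phgdh encode enzymes of amino acid metabolism that lay on opposite sides of the comparison between GFP-positive and GFP-negative mouse B cells. They are 2 of the 3983 genes with a symbol that had a detected probe on the arrays, out of 8109 such genes on the array. Probe names that carry an NCBI Gene ID gave the genes, and each gene had 1 probe, detected above background on all 4 arrays. Both genes were chosen by their measured change between GFP-positive and GFP-negative cells, so their levels and differences below are a description and carry no test.

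The sample titles call the cells of both groups B cell blasts. By the cell type label the GFP-positive cells were pre-plasmablasts, and they were set against GFP-negative cells, labelled B cell blasts. Both came from cultures of C57BL/6 background with the genotype prdm1-/-, so the control cells lack Prdm1, the gene of the plasma cell regulator Blimp-1, as well. All were grown with CD40 ligand, IL4 (10 U/mL) and IL5 (10 U/mL), which mimic help from T cells, and were sorted by GFP on day 4. Each group had 2 single-colour Illumina bead arrays. The labels name neither the locus that carries GFP nor whether the arrays came from separate cultures or mice, so p-values cover no more than how these arrays vary, possibly for technical reasons.

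Il4i1 is a secreted L-amino acid oxidase that acts mainly on phenylalanine and turns it into a keto acid, ammonia and hydrogen peroxide. It was first described as a transcript that IL-4 induces in mouse B cells, and CD40 and NF-kB signals are known to raise it too. Phgdh is phosphoglycerate dehydrogenase, which takes 3-phosphoglycerate out of glycolysis as the committed step of serine synthesis. Serine feeds glycine, folate-bound carbon units and nucleotide synthesis, which proliferating lymphocytes use heavily, and Phgdh is known as a target of the stress-response factor ATF4.

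The start regions of the transcripts are shown because IL-4, CD40 and ATF4 signals are known to act on such regions, and because the Il4i1 probe may report more than 1 transcript. RefSeq lists a second gene, Il4i1b, which starts within the neighbouring nucleoporin gene Nup62 and runs on through Il4i1, so a probe in the shared stretch cannot be assigned to either start. Each sequence below runs 5′ to 3′ from 250 bases before to 50 bases after the RefSeq start (build GRCm38.p6), and capitals mark matches to the motifs named after them. Il4i1 lies at chr7:44836038-44836337 on the plus strand, Il4i1b at chr7:44816120-44816419 on the plus strand and Phgdh at chr3:98339920-98340219 on the minus strand.
Il4i1: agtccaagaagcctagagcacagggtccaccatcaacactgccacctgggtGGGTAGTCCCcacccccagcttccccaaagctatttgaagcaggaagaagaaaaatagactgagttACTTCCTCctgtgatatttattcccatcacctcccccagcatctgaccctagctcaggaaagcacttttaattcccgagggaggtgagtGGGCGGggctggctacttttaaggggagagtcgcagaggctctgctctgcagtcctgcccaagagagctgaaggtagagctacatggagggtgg
Il4i1b: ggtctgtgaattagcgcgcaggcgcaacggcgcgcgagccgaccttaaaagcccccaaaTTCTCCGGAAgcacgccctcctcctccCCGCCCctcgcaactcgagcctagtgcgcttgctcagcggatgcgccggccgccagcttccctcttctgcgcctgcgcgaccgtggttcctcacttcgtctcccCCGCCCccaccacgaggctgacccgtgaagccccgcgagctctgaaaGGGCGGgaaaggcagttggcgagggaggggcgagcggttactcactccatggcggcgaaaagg
Phgdh: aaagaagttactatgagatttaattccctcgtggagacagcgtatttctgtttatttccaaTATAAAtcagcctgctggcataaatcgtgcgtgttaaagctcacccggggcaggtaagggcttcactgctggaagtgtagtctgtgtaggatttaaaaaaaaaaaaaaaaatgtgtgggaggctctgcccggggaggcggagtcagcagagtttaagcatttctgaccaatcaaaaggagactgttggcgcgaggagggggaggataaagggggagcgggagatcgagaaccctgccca

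Both strands were searched for 8 motifs. They were the STAT6 spacing (TTC and GAA with 4 bases between), the general STAT spacing TTCNNNGAA, a kappa-B pattern (GGGA and CC with 4 bases between), the PU.1 site GAGGAAGT, the C/EBP-ATF response element TGATGNAA, the E-box CACGTG, the GC box GGGCGG and the TATA box TATAAA, chosen with the sequences known. The Il4i1 window holds 1 kappa-B match and 1 PU.1 match, both on the minus strand, and 1 GC box. These patterns occur in 20.7%, 3.2% and 35.7% of 32851 RefSeq windows of the same length. The Il4i1b window holds 1 match to the STAT6 spacing, a pattern found in 7.0% of windows, and 3 GC boxes. The Phgdh window holds 1 match to the TATA box letters (13.6% of windows), which begins at position -189 relative to the start. The same window holds no match to the C/EBP-ATF element, which 4.0% of windows hold. None of the matches overlap. A match describes the letters and is not a measured binding site.

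The Il4i1 probe read 11.40 and 11.95 log2 units of normalized intensity in GFP-positive cells, against 14.51 and 14.81 in GFP-negative cells. Both GFP-positive arrays were low and both GFP-negative arrays high, with no overlap. The GFP-positive mean was 11.67 ± 0.39 and the GFP-negative mean 14.66 ± 0.22 (SD, n = 2 each), a difference of -2.99. Between single arrays of the 2 groups the difference lay between -3.42 and -2.56. Among the 3983 genes with a symbol, Il4i1 had the second largest decrease. In sorted bulk cells, fewer cells with a transcript and less of it per cell cannot be told apart.

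The Phgdh probe read 9.95 and 10.07 log2 units in GFP-positive cells, against 9.60 and 9.52 in GFP-negative cells. Both GFP-positive arrays were above both GFP-negative arrays. The GFP-positive mean was 10.01 ± 0.08 and the GFP-negative mean 9.56 ± 0.05 (SD, n = 2 each), a difference of 0.45, and single arrays of the 2 groups differed by 0.35 to 0.55. Phgdh had the increase of rank 243 among genes with a symbol. Its change was therefore far smaller than that of Il4i1, and on this scale changes of dim probes are probably understated, since the central 95% of values of probes detected on no array fell between 7.88 and 8.16.

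**Figure D1:**
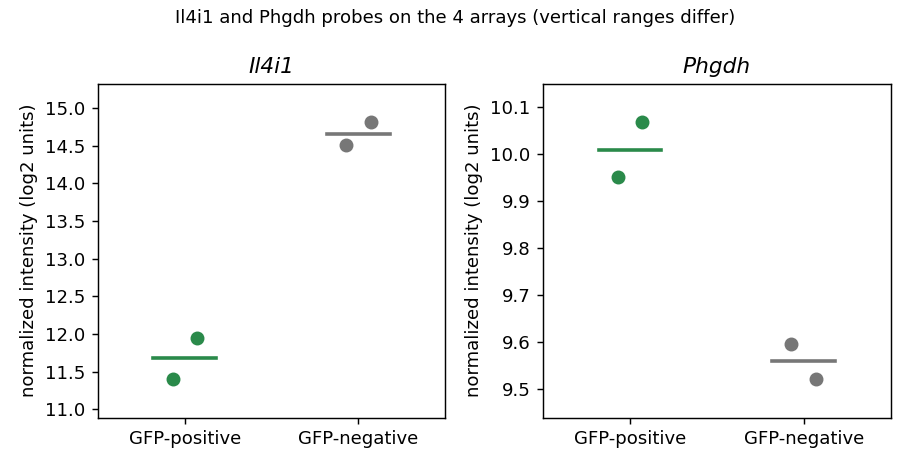
Normalized intensity (log2 units) of the Il4i1 probe (left panel) and the Phgdh probe (right panel) on each array, with GFP-positive cells left of GFP-negative cells; points are arrays and bars are means of 2. Il4i1 was lower on both GFP-positive arrays (11.40 and 11.95) and Phgdh higher (9.95 and 10.07); the vertical axes have different ranges and do not start at 0.

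The genes also differed in how far arrays of 1 group lay apart. The GFP-positive arrays differed by 0.55 log2 units for Il4i1, a gap wider than in 98.2% of the 15215 features tested, and the GFP-negative arrays differed by 0.30, wider than in 90.5%. For Phgdh the gaps were 0.12 in GFP-positive and 0.08 in GFP-negative cells, wider than in 53.9% and 40.5% of features. These shares are over all features and were not matched for intensity, and gaps of dim probes are probably understated.

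The sort was checked on the reporter. The eGFP probe read 12.75 and 12.72 log2 units in GFP-positive cells, against 9.28 and 9.39 in GFP-negative cells. It was detected on all 4 arrays, so its signal in GFP-negative cells was lower but above the band of undetected probes. None of the 7 fixed B-cell markers had a probe named by Gene ID, so the B-cell label was not checked on them. Of 5 markers of plasmablasts 3 passed the detection filter. Jchain, which joins antibody polymers, read 9.84 and 9.34 log2 units in GFP-positive cells, against 8.16 and 7.95 in GFP-negative cells. Its probe was detected on 2 of the 4 arrays and its GFP-negative values lay within the band of undetected probes, so it is given as levels, with no test. Xbp1, which builds the secretory apparatus, rose by 0.88 (limma, adjusted p = 0.0161). Ell2 helps RNA polymerase to make the secretory form of antibody transcripts and rose by 0.70 (limma, adjusted p = 0.0443). The Ell2 call was lost with no filter on detection (limma, adjusted p = 0.0741). With 1 array left out its difference lay between 0.49 and 0.92, and the call was not always kept.

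Il4i1 is also expressed by macrophages and dendritic cells, so their markers were read beside it. Of 13 such markers 6 had a probe, and 3 were detected on at least 2 arrays. Of these, Itgam was detected on 2 of the 4 arrays. It read 8.30 and 8.28 log2 units in GFP-positive cells, against 7.96 and 7.98 in GFP-negative cells. The GFP-negative values lay within the band of undetected probes, so no test is given for Itgam. Batf3, a factor of dendritic cells that activated B cells also express, rose by 0.74 (limma, adjusted p = 0.00566). Cd68, detected on all 4 arrays, differed by 0.33 (limma, adjusted p = 0.128). Itgam and Cd68 were named after their values were seen. Probes of Lyz1 and Csf1r were detected on 0 arrays and those of Lyz2 on at most 1. Of the 11 T-cell markers, Cd247 alone was detected on at least 2 arrays, with a difference of -0.05 (limma, adjusted p = 0.755). None of the 5 NK-cell markers had a probe named by Gene ID, so NK cells were not checked. Of 5 granulocyte markers 3 had a probe, and 0 reached that detection. Of 5 erythroid markers 3 had a probe and 2 were tested. Hbb-b1 differed by -0.32 (limma, adjusted p = 0.440) and Hbb-b2 by 0.03 (limma, adjusted p = 0.889), both with overlapping groups. The Hbb-b1 difference was -0.66 without GFP-negative replicate 2 and 0.02 without GFP-negative replicate 1. Whether other cells, or the plasmablast program, contribute to the Il4i1 and Phgdh differences was not tested.

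To place the enzymes among their pathways, 15 lists of related genes were read in a limma fit across all 15215 features, with Benjamini-Hochberg adjustment over all of them. In that fit 5.83% of features rose and 5.29% fell in GFP-positive cells at an adjusted p under 0.05. The lists held 91 distinct tested genes, of which 9 were higher and 6 lower. In the 13 lists of metabolism and nutrient sensing, 7 of 73 tested genes were higher and 0 lower, with a median difference of 0.06 beside -0.02 over all features. At an unadjusted limma p under 0.05, 14 of the 73 were higher and 13 lower, so small differences ran both ways. In the 2 lists of IL-4 and CD40 signals, 2 of 18 genes were higher and 6 lower, with a median of -0.22. All lists were chosen with earlier results of these data known. Their counts and medians are therefore a description and no independent support.

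**Figure D2:**
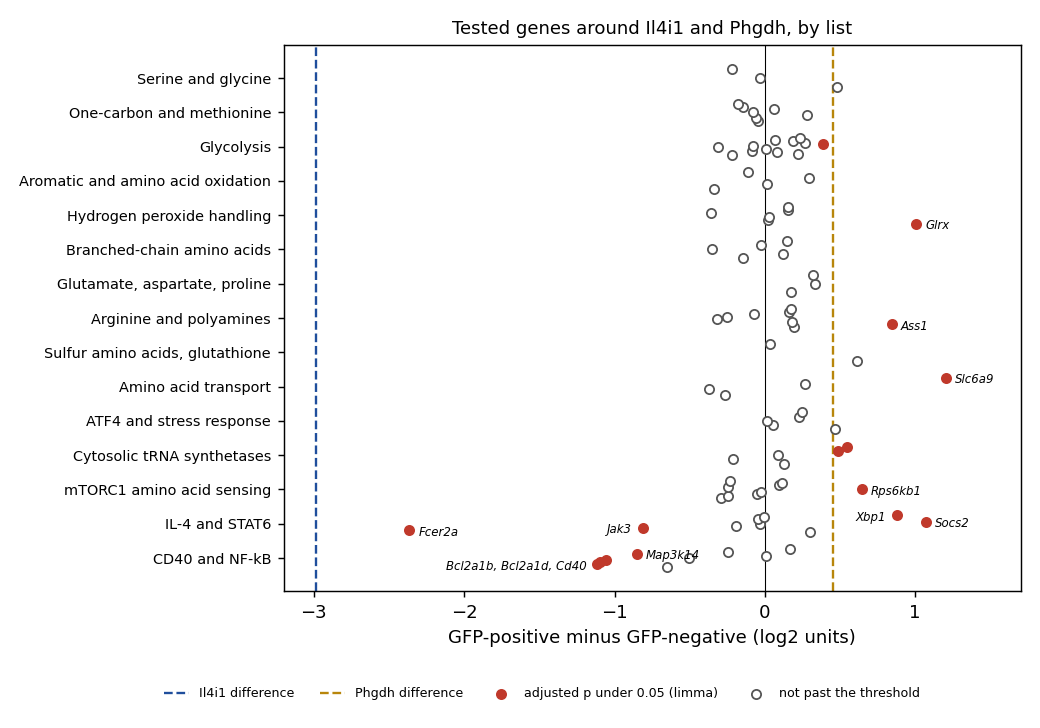
Difference between GFP-positive and GFP-negative cells (log2 units, horizontal axis) for each tested gene of the 15 lists (rows); filled points passed an adjusted p under 0.05 in the limma fit, and dashed lines mark the differences of Il4i1 (-2.99) and Phgdh (0.45). Called genes of the metabolic lists all lie right of 0, and the called genes of the CD40 list all lie left of it.

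Genes of the IL-4 list were called in both directions. Of 9 tested genes of IL-4 signalling and its targets, 2 rose, 2 fell and 5 were not called, with a median difference of -0.03. Fcer2a, the low-affinity IgE receptor CD23 and a classic IL-4 target, read 10.22 and 9.78 log2 units in GFP-positive cells, against 12.73 and 12.00 in GFP-negative cells. It fell by 2.36 (SE 0.27, limma, adjusted p = 0.00741), with no overlap between groups, and its dimmer probe differed by -1.64. Jak3, a kinase of the IL-4 receptor named after its value was seen, fell by 0.81 (limma, adjusted p = 0.0255), with -0.39 at its dimmer probe. Stat6, the factor that carries the IL-4 signal, was named outside the naming rule given below. It read 8.97 and 9.27 in GFP-positive cells, against 9.10 and 9.23 in GFP-negative cells, and the groups overlapped (limma, adjusted p = 0.880). Jak3 was no longer called when GFP-positive replicate 2 (limma, adjusted p = 0.0530), GFP-negative replicate 1 (0.0673) or GFP-negative replicate 2 (0.0565) was left out.

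Other members of the IL-4 list were higher. Socs2, an inhibitor of cytokine signalling, read 14.08 and 14.65 log2 units in GFP-positive cells, against 13.23 and 13.35 in GFP-negative cells. It rose by 1.07 (SE 0.19, limma, adjusted p = 0.0266), but not when GFP-negative replicate 1 (0.0625) or replicate 2 (0.0586) was left out. Xbp1 rose by 0.88 as given above, and its call was lost without GFP-positive replicate 2 (limma, adjusted p = 0.0601).

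Among 9 tested genes of CD40 and NF-kB signalling, 4 fell, 0 rose and 5 were not called, with a median difference of -0.65; at an unadjusted limma p under 0.05, 6 were lower and 0 higher. Cd40, the receptor of the ligand in the culture, read 9.21 and 9.34 log2 units in GFP-positive cells, against 10.37 and 10.30 in GFP-negative cells. It fell by 1.06 (SE 0.09, limma, adjusted p = 0.00301). Map3k14, the NF-kB-inducing kinase downstream of CD40, read 9.47 and 9.65 in GFP-positive cells, against 10.38 and 10.45 in GFP-negative cells, and fell by 0.85 (SE 0.10, limma, adjusted p = 0.00701). It was named after its value was seen. For both genes every GFP-positive array lay below every GFP-negative array.

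The other members of the CD40 list that fell were 2 A1 survival genes. Bcl2a1b fell by 1.11 (SE 0.15, limma, adjusted p = 0.0120) and Bcl2a1d fell by 1.09 (SE 0.18, limma, adjusted p = 0.0219). Bcl2a1a, named after its value was seen, differed by -0.65 (limma, adjusted p = 0.0752), and it passed without GFP-negative replicate 2 (adjusted p = 0.0146). These are near-identical gene copies that their probes may not tell apart, so they may count 1 change several times. Bcl2a1d missed the threshold when GFP-negative replicate 1 was left out (limma, adjusted p = 0.0540).

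**Figure D3:**
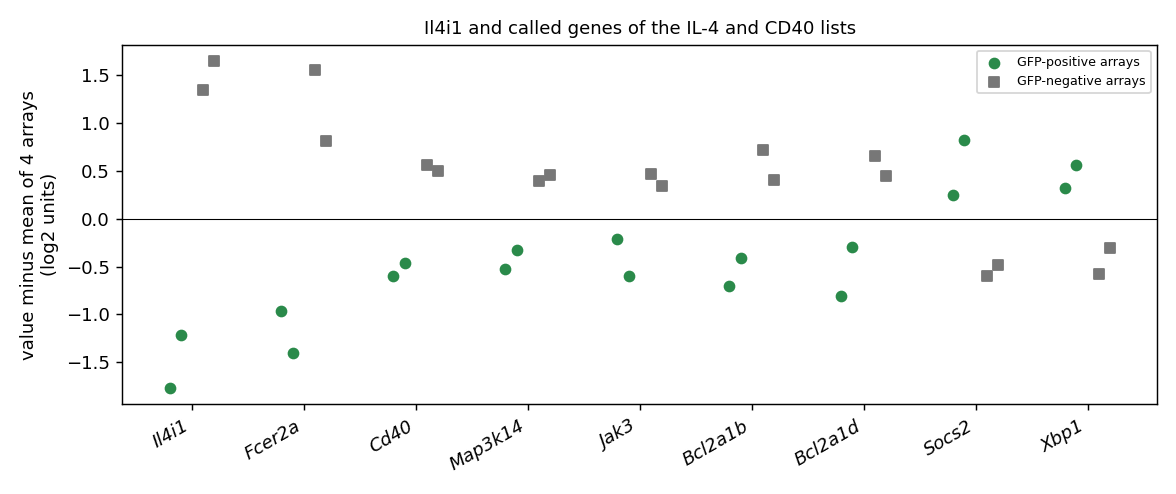
Value of each array minus the mean of the 4 arrays (log2 units, vertical axis) for Il4i1 and the called genes of the IL-4 and CD40 lists; circles are GFP-positive arrays and squares GFP-negative arrays. Il4i1, Fcer2a, Cd40, Map3k14, Jak3, Bcl2a1b and Bcl2a1d were lower on both GFP-positive arrays, and Socs2 and Xbp1 higher.

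Other genes that break down amino acids were read beside Il4i1. Of 26 listed genes of aromatic amino acid breakdown and amino acid oxidation, 11 had a probe and 4 were tested. None was called by limma at an adjusted p under 0.05, and at an unadjusted p under 0.05, 1 was lower and 0 higher. That gene was Afmid, an arylformamidase of the kynurenine route of tryptophan breakdown, which read 8.639 and 8.699 log2 units in GFP-positive cells, against 9.001 and 9.014 in GFP-negative cells (difference -0.34, limma, adjusted p = 0.0525). With no filter on detection it passed (adjusted p = 0.0301). Kmo, the next oxygenase of that route, differed by 0.30 (adjusted p = 0.468), with overlapping groups. Qdpr, which recycles the cofactor of phenylalanine hydroxylase, differed by -0.11 (adjusted p = 0.484), and Dao, the oxidase of D-amino acids, by 0.01 (adjusted p = 0.951). Probes of Ido1, Ido2 and Tdo2, which open the kynurenine route, were detected on 0 of the 4 arrays.

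The hydrogen peroxide that Il4i1 releases is cleared by peroxiredoxins and related proteins. The tested genes of the hydrogen peroxide list were the peroxiredoxins Prdx1, Prdx2, Prdx5 and Prdx6, and also Sod1 and Glrx. Of these 6 genes 1, Glrx, was higher and 0 lower, with 1 more lower at an unadjusted limma p under 0.05. The lower gene was the peroxiredoxin Prdx5, named after its value was seen. It differed by -0.36 (limma, adjusted p = 0.0736), and its dimmer probe by -0.42. Prdx5 was called lower with its probes averaged and with every probe as its own feature. Glrx, a glutaredoxin that reduces protein disulfides with glutathione, read 12.16 and 12.50 log2 units in GFP-positive cells, against 11.36 and 11.28 in GFP-negative cells. It rose by 1.01 (SE 0.13, limma, adjusted p = 0.0100). Gclm, from the separate list of sulfur amino acids and glutathione, is a subunit of the enzyme that starts glutathione synthesis. It read 9.70 and 10.09 in GFP-positive cells, against 9.30 and 9.26 in GFP-negative cells. Gclm missed the threshold (difference 0.61, limma, adjusted p = 0.0533). It passed with probes detected on all 4 arrays (limma, adjusted p = 0.0496), with cyclic loess (0.0418), with an intensity trend (0.0376) and without GFP-positive replicate 1 (0.0242).

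Around Phgdh, few genes of serine and glycine metabolism could be read. Of 17 listed genes 4 had a probe and 3 were tested, and Psat1 and Psph, which complete serine synthesis after Phgdh, were not analysed here. None of the 3 was called by limma; at an unadjusted p under 0.05, 1 was higher and 1 lower. Gcat, which makes glycine in threonine breakdown, read 11.02 and 10.87 log2 units in GFP-positive cells, against 10.60 and 10.33 in GFP-negative cells (difference 0.48, adjusted p = 0.0677). It passed without GFP-negative replicate 1 (adjusted p = 0.0475). Srr, the serine racemase, differed by -0.22 (adjusted p = 0.179), and Shmt1, which converts serine to glycine in the cytosol, by -0.03 (adjusted p = 0.861).

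The largest increase among the metabolic lists belonged to a glycine carrier. Slc6a9, the glycine transporter GlyT1, read 9.39 and 9.51 log2 units in GFP-positive cells, against 8.27 and 8.23 in GFP-negative cells, where it lay close to the band of undetected probes. It rose by 1.20 (SE 0.08, limma, adjusted p = 0.00190), and no array left out ended the call. It was 1 of 4 tested amino acid transporters, of which 0 fell at an adjusted and 1 at an unadjusted limma p under 0.05.

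Glycolysis supplies serine synthesis and folate metabolism draws on it. Of 12 tested glycolytic genes 1 was higher and 0 lower, with 1 lower at an unadjusted limma p under 0.05. The one that rose was Pfkm, a phosphofructokinase upstream of 3-phosphoglycerate, at 9.23 and 9.15 log2 units in GFP-positive cells, against 8.84 and 8.78 in GFP-negative cells (difference 0.38, limma, adjusted p = 0.0431). Its call was lost whichever array was left out (limma, adjusted p from 0.0964 to 0.194) and with an intensity trend (adjusted p = 0.0551). Among 7 genes of folate and methionine metabolism, which use the carbon unit of serine, none was called by limma, and none had an unadjusted p under 0.05. The smallest p was that of Tyms, the thymidylate synthase, which differed by -0.18 (limma, adjusted p = 0.298).

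**Figure D4:**
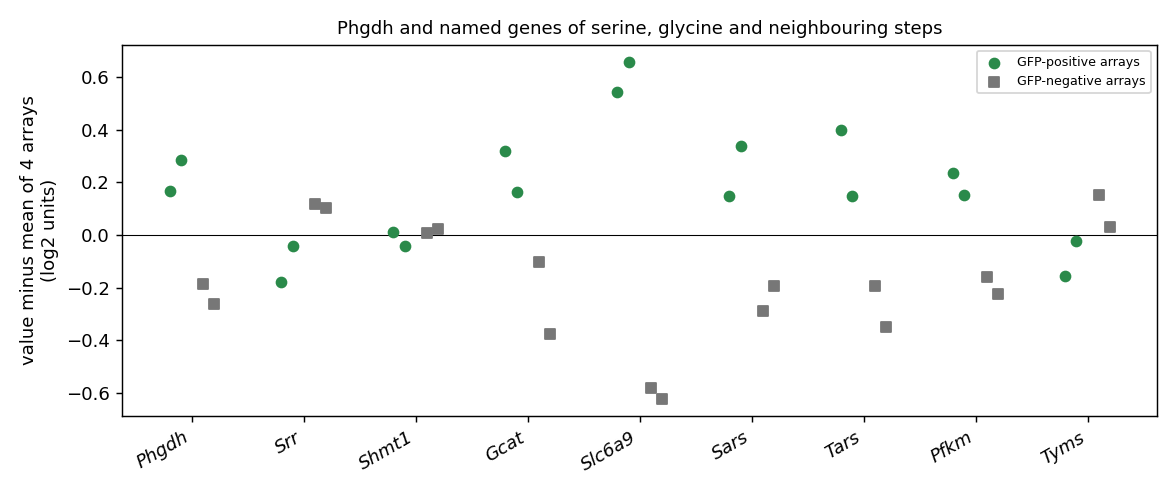
Value of each array minus the mean of the 4 arrays (log2 units, vertical axis) for Phgdh and the named genes of serine, glycine, tRNA charging, glycolysis and folate steps; circles are GFP-positive arrays and squares GFP-negative arrays. Slc6a9, Sars, Tars and Pfkm were called higher and Srr, Shmt1, Gcat and Tyms were not called.

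Charging of tRNA with amino acids is a further use of serine. Of 5 tested cytosolic tRNA synthetases 2 rose and 0 fell, with 1 lower at an unadjusted limma p under 0.05. The seryl-tRNA synthetase Sars read 11.21 and 11.40 log2 units in GFP-positive cells, against 10.77 and 10.86 in GFP-negative cells, and rose by 0.49 (limma, adjusted p = 0.0387). The threonyl-tRNA synthetase Tars read 10.36 and 10.11 in GFP-positive cells, against 9.76 and 9.61 in GFP-negative cells, and rose by 0.54 (limma, adjusted p = 0.0443). Tars missed the threshold with no filter on detection (limma, adjusted p = 0.0610), and Sars with an intensity trend (limma, adjusted p = 0.0550). Both calls were lost whichever array was left out (limma, adjusted p from 0.0577 to 0.122 for Sars and from 0.0509 to 0.164 for Tars). Of 5 tested genes of the ATF4 and stress-response list, to which Phgdh is commonly added, none was called by limma, though all 5 differences were positive and 1 gene was higher at an unadjusted p under 0.05. Eif4ebp1, a repressor of translation that ATF4 induces, had the smallest p of them, at a difference of 0.23 (limma, adjusted p = 0.154).

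Other amino acid routes gave single genes. Ass1, the argininosuccinate synthase of arginine synthesis, read 13.06 and 13.32 log2 units in GFP-positive cells, against 12.39 and 12.29 in GFP-negative cells. It rose by 0.84 (SE 0.11, limma, adjusted p = 0.0116) as the called member among 8 tested genes of arginine and polyamines, of which 0 fell, with 2 lower at an unadjusted limma p under 0.05. Among 9 tested genes of amino acid sensing by mTORC1, the S6 kinase Rps6kb1 rose by 0.65 (limma, adjusted p = 0.0417) and 0 fell, with 4 lower at an unadjusted limma p under 0.05. It missed the threshold when GFP-positive replicate 1 (limma, adjusted p = 0.0903), GFP-negative replicate 1 (0.105) or GFP-negative replicate 2 (0.101) was left out, and with no filter on detection (adjusted p = 0.0649). Ivd, of leucine breakdown, differed by -0.35 (limma, adjusted p = 0.0609), and Got2, the mitochondrial aspartate aminotransferase, by 0.34 (limma, adjusted p = 0.0604). Got2 passed with no filter on detection (limma, adjusted p = 0.0423) and with cyclic loess (difference 0.47, adjusted p = 0.0252).

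Nup62, Tbc1d17 and Akt1s1 are detected neighbours of Il4i1 on chromosome 7, and none of them was called by limma at an adjusted p under 0.05. Nup62, whose start lies next to that of Il4i1b, read 10.52 and 10.12 log2 units in GFP-positive cells, against 10.40 and 10.43 in GFP-negative cells, and the groups overlapped (difference -0.10, limma, adjusted p = 0.738). Tbc1d17, on the other side, differed by -0.0041 (limma, adjusted p = 0.985). Akt1s1, a subunit of mTORC1 beyond it, differed by -0.29 (limma, adjusted p = 0.127).

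The genes most like each enzyme were found by the Euclidean distance between profiles, each value being taken minus its mean over the 4 arrays. This measure rests on the same contrast that chose the enzymes and is given with no test. Closest to Il4i1 were Satb1, a chromatin organiser (distance 0.85, difference -2.20), Sorl1, a sorting receptor (0.88, -2.11), and Crhbp, which binds corticotropin-releasing hormone (1.03, -2.04). The inhibitory receptor Cd72 (1.08, -3.96) and Fcer2a (1.20, -2.36) came next. Sorl1 read 8.57 and 9.11 log2 units in GFP-positive cells, against 10.80 and 11.10 in GFP-negative cells, so its arrays lay apart within each group by nearly as much as those of Il4i1.

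The genes closest to Phgdh lay at shorter distances from it than those closest to Il4i1 did from Il4i1. Closest were Lasp1, an actin-binding protein (distance 0.04, difference 0.47), Elovl6, a fatty acid elongase (0.04, 0.45), and Man1c1, a mannosidase of the Golgi (0.05, 0.40). Tmem97, a sterol-regulated membrane protein (0.07, 0.45), and Zfp710, a zinc finger protein (0.07, 0.41), followed. A dimmer probe of Lasp1 differed by -0.10, in the opposite direction.

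**Figure D5:**
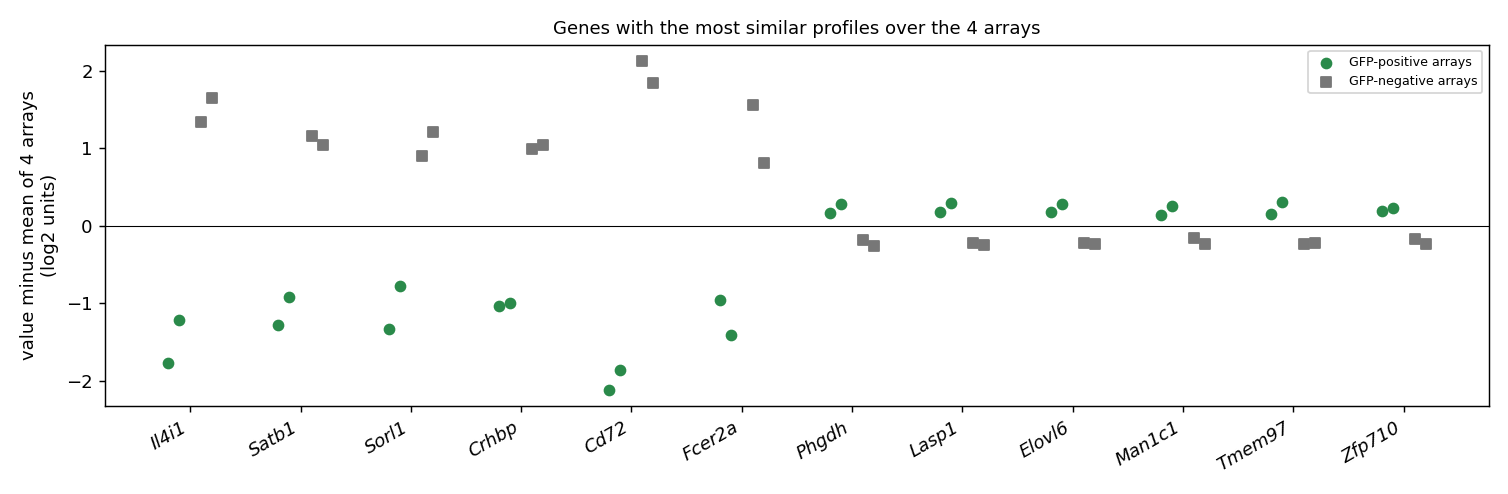
Value of each array minus the mean of the 4 arrays (log2 units, vertical axis) for Il4i1 and Phgdh, each followed by the 5 genes with the most similar profile; circles are GFP-positive arrays and squares GFP-negative arrays. The genes like Il4i1 have differences from -3.96 to -2.04, and those like Phgdh from 0.40 to 0.47.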

How the data were processed

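The authors deposited intensities on what reads as a log2 scale, normalized with lumi, an R package for bead arrays, per the submitters' processing notes. They were used as they are. Version, background step and transformation: not given in the sources used here. The deposited unnormalized table has 4 signal columns whose names match no label, and these were not used. Its detection p-values, deposited by the authors per the file headers, served only to count the arrays with a p under 0.05. Of 45992 probes, the 15787 detected on at least 2 arrays were kept. Probe names with an NCBI Gene ID gave 9807 probes a symbol (RefSeq table, GRCm38.p6). A gene was its probe with the highest mean, which left 15215 features.

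The difference of GFP-positive over GFP-negative cells was fitted with limma 3.58.1 in R 4.3.3 (lmFit, eBayes, 2 residual and 3.40 prior degrees of freedom, two-sided, no block), and the script was tested on simulated data. The smallest p of an exact permutation test here is 0.33. The number of arrays limits precision. In the simulated data, 6 of 50 changes of 0.5 log2 units were recovered, and 43 of 50 changes of 1 log2 unit. There were 9 false calls. A gene that was not called may therefore still differ by such amounts. Named were Il4i1 and Phgdh, up to 3 called genes a list by size (or the smallest p), all tested genes of the serine and amino acid oxidation lists, the 5 closest profiles of each, and the 2 nearest detected neighbours on each side, of which 1 is not reported here. Alternatives were no detection filter or detection on all 4 arrays, cyclic loess, other probe choices, a replicate block, an intensity trend, robust fitting and leaving out each array. Members and lists were chosen with earlier results of these data known.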

Additional observations from a re-analysis of the deposited data

How the results depend on the processing

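The Il4i1 difference lay between -3.26 and -2.71 and the Phgdh difference between 0.39 and 0.51 when each array was left out in turn, and cyclic loess gave -2.86 and 0.49; no other setting changed either value. A fit with a replicate block called 1861 features higher and 2125 lower, 18 and 16 list members, and 15 and 8 metabolic list members, against 887 and 805, 9 and 6, and 7 and 0 without the block. The labels do not state that the numbers pair the arrays, and with 2 numbers the correlation of the array differences (0.44) cannot settle it. Tent5c, not called without the block, passed with it (limma, adjusted p = 1.47e-07). So did Afmid, Akt1s1, Bcl2a1a, Cd68, Gcat, Gclm, Got2, Hbb-b1, Ivd and Kmo. Without 1 array, 492 to 618 features were higher and 336 to 610 lower, and so were 4 to 6 and 5 to 6 list members and 3 to 5 and 0 to 1 metabolic members. Fewer arrays entered those fits, and the lone array of a group was assumed to vary like the others. The count of lower metabolic members was 1 with no filter on detection (Afmid), with probes of a gene averaged (Prdx5) and with every probe as its own feature (Prdx5). With every probe as its own feature, the dimmer Lasp1 probe gave -0.10; the cause was not tested. Jchain is left out here, since its levels alone are read because of its low detection. Of the other called genes named by the rule, Ass1, Batf3, Bcl2a1b, Cd40, Fcer2a, Glrx and Slc6a9 kept the call whichever array was left out. The rest lost it without at least 1 array. Ell2 lost it without GFP-positive replicate 1 (adjusted p = 0.0811 by limma) and GFP-negative replicate 1 (0.0795) or 2 (0.135). Dim probes limit what can be seen: values near 8 are probably compressed, and probes without a Gene ID were not named.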

Other observations

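Beside Phgdh on chromosome 3, the nearest detected protein-coding neighbours lay further off. Tent5c, a poly(A) polymerase known from antibody-secreting cells and 16 genes away, read 10.20 and 9.56 log2 units in GFP-positive cells, against 9.29 and 8.27 in GFP-negative cells. It differed by 1.10 (SE 0.37, limma, adjusted p = 0.135), and its arrays lay apart within each group by 0.64 in GFP-positive and 1.02 in GFP-negative cells. Without GFP-negative replicate 1 it passed (difference 1.61, limma, adjusted p = 0.0227). Chd1l, a chromatin remodeller, differed by -0.07 (limma, adjusted p = 0.731), Adam30, of the ADAM family, by 0.03 (limma, adjusted p = 0.859) and Igsf3 by 0.04 (limma, adjusted p = 0.826).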
